A study of Mus musculus with 10 samples.

Results

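The 10 genes followed here, of serine synthesis, mitochondrial folate metabolism and the ATF4 stress response, were measured in mouse fetal livers that lack Zfp36l2, an RNA-binding protein that promotes mRNA decay. They are Phgdh, Psat1, Psph, Shmt2, Mthfd2, Asns, Atf4, Ddit3, Trib3 and Chac1. They were chosen by gene name, as every probe set whose annotation gives that single symbol, and they were picked from a table whose knockout and wild type values were already known. Their differences between the genotypes are therefore a description of these livers, and the p-values printed for them are those of a fit across the whole table. The 10 genes had 23 probe sets out of 45037, and the array named 18193 genes in all. Each of the 10 genes passed the filter on low values, through 22 of the 23 probe sets, and the remaining probe set belonged to Atf4.

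The livers came from embryonic day 14.5. Zfp36l2 knockout (Zfp36l2 KO) livers numbered 5 and wild type (WT) livers 5, each from a separate fetus of a mixed b6 and 129 background. How the Zfp36l2 allele was made is not given in the sources used here. RNA of each whole liver was hybridised to 1 Affymetrix array, so levels are averages over hepatoblasts, blood cells and stroma, and fewer cells of a type cannot be told apart from less RNA per cell.

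Serine is made from the glycolytic intermediate 3-phosphoglycerate by PHGDH, PSAT1 and PSPH, acting in that order. Mitochondrial SHMT2 then splits serine into glycine and a folate-bound carbon unit, which MTHFD2 oxidises for the synthesis of purines and thymidylate, a demand of dividing cells. ATF4 is a transcription factor whose protein is made when eIF2 is phosphorylated, so its activity is set largely by translation and not by the level of its mRNA. It induces amino acid synthesis and import genes, Asns among them, and in prolonged stress Ddit3, Trib3 and Chac1. In the fetal liver erythroid cells, the eIF2 kinase HRI (Eif2ak1) couples this response to haem supply.

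Levels below are quantile-normalized intensities on a linear scale, and differences are log2 KO minus WT from limma after values under 16 were set to 16. Where a gene has several probe sets, the brightest on average stands for it, and it is called where the p-value adjusted over all 27022 tested probe sets lies under 0.05. Array medians before normalization ran from 19.5 to 25.01 units. Each array correlated with the rest at 0.953 to 0.959 on average, and none stood apart by this measure. The count of called genes did depend on WT replicate 5, at 114 without it, against 10 to 26 without any other single liver. Zfp36l2 itself read 108, 82.3, 109, 103 and 108 in KO livers, against 396, 397, 596, 391 and 389 in WT livers. By this probe set every KO liver lay far below every WT liver, as the labels have it, with a log2 difference of -2.08 ± 0.13 (SE, n = 5 each; limma adjusted p = 1.47e-06). A second Zfp36l2 probe set averaged 25.0 ± 7.77 in KO livers and 31.4 ± 10.8 in WT livers and overlapped (log2 -0.25 ± 0.31, limma adjusted p = 0.858), and the remaining one failed the filter, under 16 in every liver.

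ATF4 binds, as a dimer with C/EBP proteins, to a response element whose core letters are TGATGNAA, and these letters were searched on both strands of RefSeq promoter windows of build GRCm38.p6, from 250 bases before to 50 after each start. All 10 genes had a window, Psat1 having 2 of the 11. Asns, Chac1 and Trib3 held the letters, in 3 of the 11 windows, against 3.97% of all 32851 windows. The matching stretches are shown because they hold the letters of the pathway's response element, with the matching letters or their reverse complement in capitals. The Asns stretch lies at chr6:7693210-7693258 on the minus strand, and its match begins 23 bases before the start.
Asns: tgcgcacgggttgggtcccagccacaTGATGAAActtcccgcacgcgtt
Chac1: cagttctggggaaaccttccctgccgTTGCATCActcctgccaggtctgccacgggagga
Trib3: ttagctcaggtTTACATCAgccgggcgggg
The Chac1 stretch lies at chr2:119351023-119351082 on the plus strand, with its match 193 bases before the start. The Trib3 stretch lies at chr2:152344028-152344057 on the minus strand, with its match 15 bases after the start.

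Psat1, the single member called, did not hold these letters in either of its windows. No match says only that these letters are not in the windows. The 250 bases before its upstream start, at chr19:15925060-15925309 on the minus strand, are shown as the promoter of the gene that differed.
Psat1: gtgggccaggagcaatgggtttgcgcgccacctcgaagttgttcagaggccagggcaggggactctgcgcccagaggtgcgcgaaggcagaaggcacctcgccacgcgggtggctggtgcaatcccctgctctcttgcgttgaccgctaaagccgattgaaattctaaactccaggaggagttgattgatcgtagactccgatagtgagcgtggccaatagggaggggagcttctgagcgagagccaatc

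Within the serine synthesis branch, the aminotransferase gene Psat1 was higher in Zfp36l2 KO livers and was the single member called. The phosphatase gene Psph differed by as much but missed the threshold, and the dehydrogenase gene Phgdh had smaller positive values. Of the 10 genes, 1 was called, against 42 of 12821 tested genes or 0.328%. Since earlier values of this contrast were known when the genes were chosen, nothing is read from that share.

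Psat1, which encodes phosphoserine aminotransferase, read 1812, 1967, 1651, 1694 and 2102 in KO livers, against 1619.6, 1362, 1273, 1336 and 1292 in WT livers. Every KO liver lay above every WT liver, though the lowest KO liver and the highest WT liver nearly met. The means were 1845 ± 189 in KO livers and 1377 ± 140.4 in WT livers (SD, n = 5 each). The log2 difference was 0.42 ± 0.08 (SE), a 1.34-fold higher level, with a 95% interval of 0.25 to 0.59 on the log2 scale (limma adjusted p = 0.0378). The size held between 0.37 and 0.48 over 19 other settings, but the call did not, since Psat1 passed in 7 of them. With the floor placed at the lowest positive value in place of 16, the difference was again 0.42 and the adjusted p of limma was 0.0936. Leaving out KO replicate 1, 2, 4 or 5 or WT replicate 2, 3 or 4 ended the call as well, at 0.37 to 0.45.

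A second Psat1 probe set read 1608, 1523, 1547, 1334 and 1669.9 in KO livers, against 1223, 1226, 1424, 1139.6 and 1278 in WT livers. There 4 of 5 KO livers exceeded every WT liver, and 1 WT liver, replicate 3, exceeded the lowest KO liver. Its log2 difference of 0.29 ± 0.07 was not called (limma adjusted p = 0.114). Around their genotype means the 2 probe sets barely moved together, with r = 0.13 over 10 livers.

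Psph, whose product removes the phosphate in the last step to serine, has 1 probe set. It read 1056, 945, 847, 909 and 1050.4 in KO livers, against 859, 804, 568, 651 and 711 in WT livers. The groups overlapped by a single pair, as WT replicate 1 lay just above KO replicate 3. The means were 962 ± 90.8 in KO livers and 719 ± 116 in WT livers. The log2 difference of 0.43 ± 0.10 is a ratio of 1.35 with a 95% interval of 1.16 to 1.56, and it was not called (limma adjusted p = 0.0991).

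Phgdh encodes the dehydrogenase that commits 3-phosphoglycerate to serine. Its leading probe set read 2827, 3120.5, 2452, 2772 and 2383 in KO livers, against 2956, 2446, 2316, 2581 and 2089.5 in WT livers. These groups overlapped widely, and only KO replicate 2 exceeded all WT livers. The log2 difference was 0.13 ± 0.09 (limma adjusted p = 0.680), with a 95% interval of -0.06 to 0.32. The 3 other Phgdh probe sets had differences of 0.30, 0.23 and 0.19, with limma adjusted p-values of 0.592, 0.558 and 0.698. All 4 carry the suffix by which Affymetrix marks probes that can also match other transcripts. The same suffix marks the probe set that stands for Shmt2 and further probe sets of Shmt2, Asns, Atf4 and Trib3. A contribution of related sequences was not tested.

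**Figure D1:**
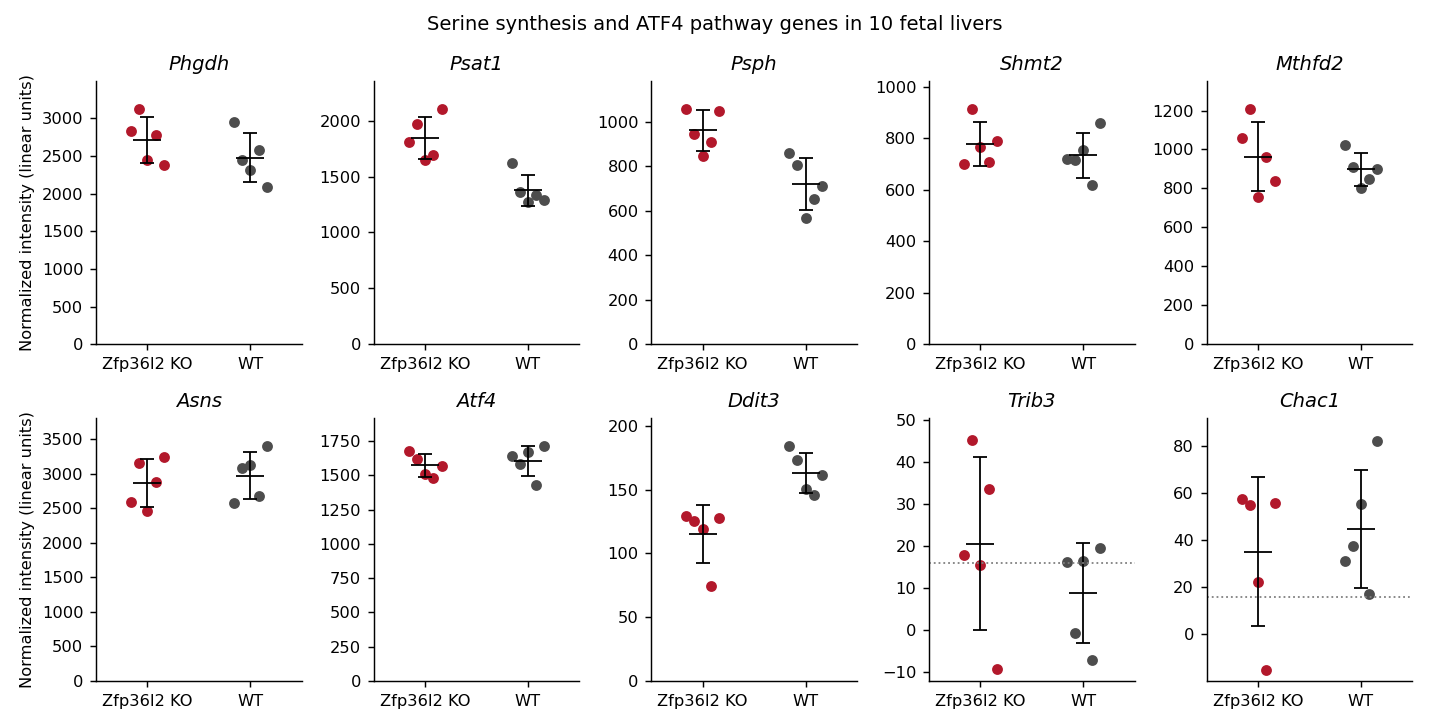
Normalized intensity (linear units) of each of the 10 genes in 5 Zfp36l2 KO livers (red, left) and 5 WT livers (grey, right), 1 point per liver in order of replicate, with the mean and SD in black and the floor of 16 dotted where values fall under it. Psat1 is higher and Ddit3 lower in all 5 KO livers than in any WT liver, Psph overlaps by 1 pair of livers, and Trib3 and Chac1 lie near the floor.

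The mitochondrial folate enzymes that use serine did not pass the test. Shmt2, serine hydroxymethyltransferase of mitochondria, averaged 776 ± 85.4 in KO livers and 734 ± 86.8 in WT livers. Its values ran from 701 to 913 in KO livers, against 618 to 859.6 in WT livers, so the ranges overlapped widely. The log2 difference was 0.08 ± 0.09 (limma adjusted p = 0.835), and its other probe sets stood at -0.01, -0.01 and 0.22. The one at 0.22 had 4 of 5 KO livers above all WT livers, at 108 ± 11.3 in KO livers and 92.3 ± 7.87 in WT livers.

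Mthfd2, the mitochondrial methylenetetrahydrofolate dehydrogenase, read 1060.3, 1207, 754, 959 and 837 in KO livers, against 1022, 912, 801, 850.2 and 901 in WT livers. KO livers lay both above and below the WT range, and their SD was 179 against 82.4 in WT livers. The log2 difference was 0.09 ± 0.11 (limma adjusted p = 0.859), and 0.17 ± 0.10 in the second probe set, which followed the first from liver to liver (r = 0.96 around the genotype means, 10 livers).

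Asns and Atf4 were the members closest to no difference. Asns, the asparagine synthetase and a classical ATF4 target, read 2587, 3155, 2456, 2876 and 3239 in KO livers, against 2574, 3075, 3129, 2678 and 3400.0 in WT livers. The groups overlapped nearly completely. The log2 difference was -0.05 ± 0.09, with a 95% interval of -0.24 to 0.13 (limma adjusted p = 0.902), so an increase above 1.10-fold lies outside it. The second Asns probe set gave -0.03 ± 0.07.

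Atf4 read 1681, 1619.6, 1511, 1479.7 and 1569.9 in KO livers, against 1643, 1579.8, 1668, 1433 and 1715 in WT livers. No KO liver left the WT range. The log2 difference was -0.03 ± 0.06 (95% interval -0.16 to 0.10; limma adjusted p = 0.922), a ratio of 0.896 to 1.07. A second tested probe set averaged 534 ± 50.4 in KO livers and 536 ± 66.7 in WT livers. The third failed the filter, with 3 KO livers and 5 WT livers under 16. The array measured Atf4 mRNA, and the protein through which the factor acts was not measured.

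Ddit3, which encodes CHOP, a transcription factor that promotes cell death in lasting stress, went the other way from Psat1. It read 129, 126, 119, 74.7 and 128 in KO livers, against 184, 173, 150.5, 146 and 161 in WT livers. All 5 KO livers lay below all WT livers, with KO replicate 4 the lowest by far. The means were 115 ± 23.0 in KO livers and 163 ± 15.9 in WT livers. The log2 difference of -0.52 ± 0.16 was not called (limma adjusted p = 0.225), and without KO replicate 4 it was -0.37 (adjusted p = 0.332). The other Ddit3 probe set averaged 42.7 ± 18 in KO livers and 37.8 ± 18.3 in WT livers and stood at 0.18 ± 0.39, opposite in sign.

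Counted by separation of the groups, 1 of the 10 genes was higher in every KO liver (Psat1) and 1 was lower in every KO liver (Ddit3). Over all tested genes the share without overlap was 1.36% on the higher side and 1.44% on the lower side. The genes were chosen with these values known, so the counts describe the set and are not a result about it. Of the 10 genes 6 had positive differences, with a median of 0.08, against 50.1% positive and a median of 0.00 over all tested genes.

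Trib3 and Chac1 lay near the floor, and their differences were poorly determined. Trib3, a pseudokinase that binds ATF4 and dampens it, read 17.8, 45.0, 15.5, 33.5 and -9.26 in KO livers, against 16.2, -0.717, 16.3, -7.14 and 19.4 in WT livers. Values under 16 stood on both sides, in 2 livers of each genotype, and no fold is given. Its second probe set read 15.4, 67.1, 12.9, 12.4 and 18 in KO livers, and every WT liver lay under 16, between -11 and 3.57. The KO livers were higher there without overlap, yet 3 of them lay under the floor too, and the difference was not called (limma adjusted p = 0.745).

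Chac1, an enzyme that degrades glutathione, read 57.6, 55.0, 22.4, -15.3 and 55.7 in KO livers, against 31.2, 37.4, 55.4, 17.0 and 82.2 in WT livers. The spread within each genotype exceeded the difference of the means, and limma gave an adjusted p of 0.969. Its 95% interval ran from -1.05 to 0.85 on the log2 scale, wider than that of any gene of the serine branch. With the floor at the lowest positive value the difference was -2.90 ± 2.51 (limma adjusted p = 0.737), so its size depends on the floor.

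**Figure D2:**
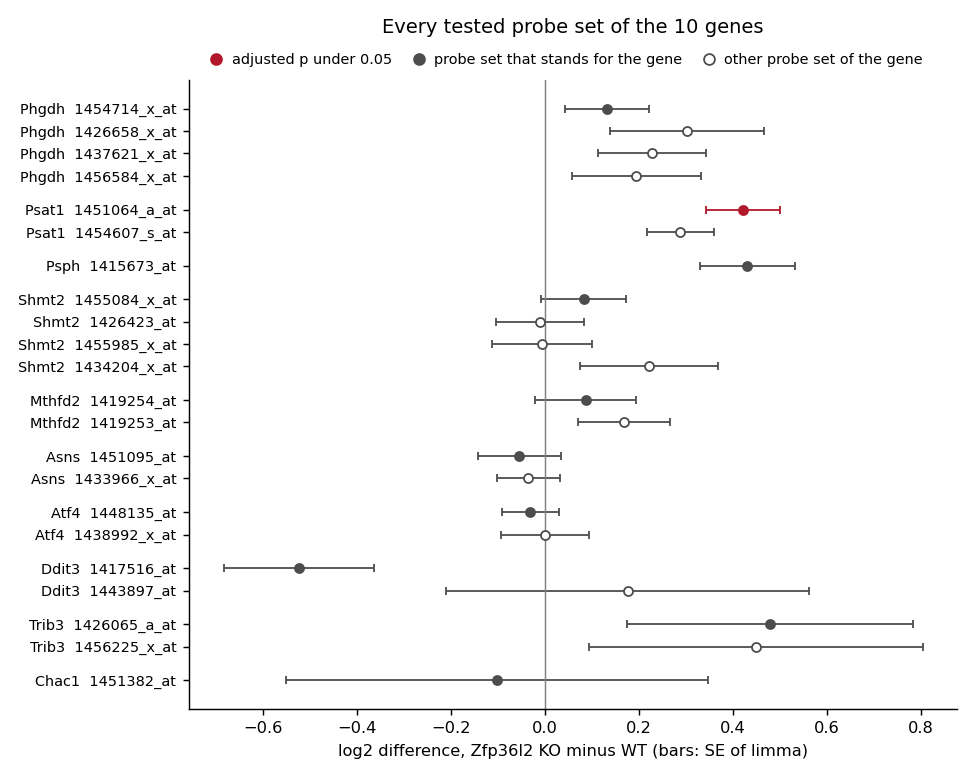
Log2 difference, Zfp36l2 KO minus WT, with the SE of limma for the 22 tested probe sets of the 10 genes; filled points mark the probe set that stands for the gene, open points its other probe sets, and red an adjusted p under 0.05. Both Psat1 probe sets, Psph and all 4 Phgdh probe sets lie right of 0, while Asns and Atf4 lie within 0.06 of it and Ddit3 stands at -0.52 in one probe set and 0.18 in the other.

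Other genes of the same pathways came from lists chosen by name, with earlier results of these livers known. Over all tested genes, 11.4% had an unadjusted limma p under 0.05, and the counts below are read against that share. Limma called 0 of 27 tested genes for glycine, serine and folate metabolism outside the 10, with 3 at an unadjusted p under 0.05, a share near that of all genes, 14 positive and 13 negative, and a median of 0.02. The 2 with the largest moderated t were Mthfd1l and Gldc. Mthfd1l, the mitochondrial formyltetrahydrofolate synthetase that acts after MTHFD2, averaged 614 ± 24.6 in KO livers and 709.7 ± 63.6 in WT livers, lower in every KO liver (log2 -0.21 ± 0.07, limma adjusted p = 0.299). Gldc, of the glycine cleavage system, averaged 303 ± 32.5 in KO livers and 251 ± 33.8 in WT livers (limma adjusted p = 0.401).

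Among 23 tested ATF4 targets outside the 10, limma called 0, with 1 at an unadjusted p under 0.05, while 17 had positive and 6 negative differences and the median was 0.13. The single gene under 0.05 was Cebpb, a partner of ATF4 on its response element. Cebpb read 286, 292, 248, 248 and 247 in KO livers, against 154, 181, 142, 121 and 239 in WT livers. All KO livers lay above all WT livers, with WT replicate 5 close to them (log2 0.69 ± 0.15, limma adjusted p = 0.0736). Without that liver the difference was 0.83 (limma adjusted p = 0.00599), and without any one of the other 9 it was 0.59 to 0.73 and not called (limma adjusted p = 0.121 to 0.178). Ddit4, an inhibitor of mTORC1, averaged 80.6 ± 11.6 in KO livers and 58.0 ± 31.5 in WT livers and overlapped (limma adjusted p = 0.591). Atf3, Stc2, Bcat1, Fgf21 and Slc7a11 averaged under 16, and 8 members of this list also stand in another list.

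Amino acid carriers, tRNA synthetases and the eIF2 machinery showed no call. Limma called 0 of 12 amino acid carriers, with 1 at an unadjusted p under 0.05 and a median of -0.10. That one was Slc43a1, a carrier of large neutral amino acids, at 832 ± 86.1 in KO livers and 975 ± 101 in WT livers (limma adjusted p = 0.353). Slc3a2, the shared heavy chain of several carriers, averaged 889 ± 142 in KO livers and 992 ± 97.1 in WT livers (limma adjusted p = 0.616).

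Limma called 0 of 19 cytosolic aminoacyl-tRNA synthetases, many of them ATF4 targets, with 0 at an unadjusted p under 0.05 and values between -0.16 and 0.16. Iars averaged 1042 ± 59.6 in KO livers and 1127 ± 67.4 in WT livers, and Hars 1440.0 ± 180.4 in KO livers and 1609 ± 182 in WT livers. Of 14 genes for eIF2, eIF2B, the eIF2 kinases and their phosphatase regulators, limma called 0, with 0 at an unadjusted p under 0.05 and a median of -0.02. Eif2ak1, the haem-regulated kinase, averaged 970.2 ± 53.8 in KO livers and 1058 ± 120.3 in WT livers (limma adjusted p = 0.649). Ppp1r15b, the constitutive eIF2 phosphatase subunit, averaged 824 ± 18 in KO livers and 889 ± 19.5 in WT livers, lower in every KO liver (log2 -0.11 ± 0.05, limma adjusted p = 0.516).

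The ATF6 and XBP1 arm of the unfolded protein response shares the PERK branch's trigger in the endoplasmic reticulum. It had 17 of 19 genes positive and a median of 0.21, and whether ATF4 also acts on these genes was not tested. Limma called 1 of them, with 11 at an unadjusted p under 0.05, all higher, against 5.94% of all tested genes on that side. Xbp1 rose to 1703 ± 90.3 in KO livers, against 1379 ± 60.5 in WT livers (log2 0.30 ± 0.06, limma adjusted p = 0.0359), and with the lowest-positive floor its adjusted p was 0.0676. Xbp1 passed in 5 of the 19 other settings. Leaving out any liver except WT replicate 5 ended the call, at 0.27 to 0.33. Manf, a secreted folding factor of the endoplasmic reticulum, averaged 1671 ± 74.3 in KO livers and 1362 ± 138 in WT livers and was not called (adjusted p = 0.0910).

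**Figure D3:**
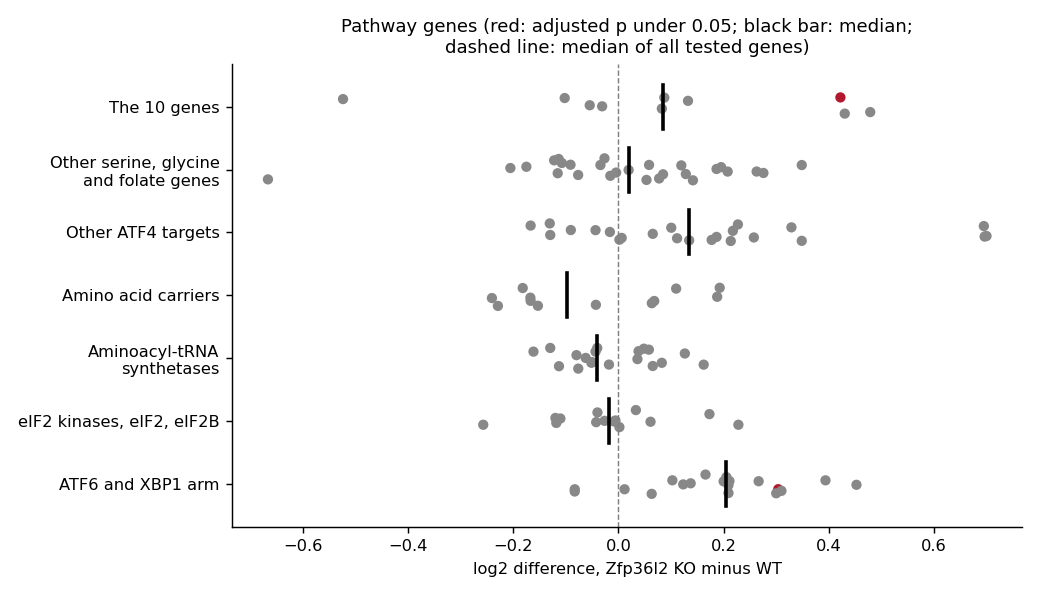
Log2 difference, Zfp36l2 KO minus WT, of the 10 genes and of each tested gene in 6 lists of the surrounding pathways, 1 point per gene; black bars are medians, the dashed line is the median of all tested genes and red points had an adjusted p under 0.05. The red points are Psat1 among the 10 genes and Xbp1 in the ATF6 and XBP1 arm. The median of that arm, 0.21, lies right of those of the other ATF4 targets (0.13), the eIF2 genes (-0.02) and the tRNA synthetases (-0.04).

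The cell marker lists are given beside these values. Proliferation markers summed to 14787 to 16950.4 units in KO livers, against 17072 to 18979 in WT livers, with 7 of 7 tested genes negative, 5 of them at an unadjusted p under 0.05, 0 called by limma, and a median of -0.20. Megakaryocyte and platelet markers summed to 1499.9 to 2500.3 in KO livers, against 3685 to 5350.3 in WT livers, and 5 of 8 were called lower. Erythroid markers had 6 of 7 negative with a median of -0.18, macrophage markers 8 of 8 positive with a median of 0.39, neutrophil markers 7 of 9 positive with a median of 0.93, endothelial markers 5 of 6 positive with a median of 0.21 and hepatocyte markers 4 of 7 positive with a median of 0.03. Limma called 0 genes in these 5 lists, with 5, 4, 6, 2 and 1 genes at an unadjusted p under 0.05 in the order given, against 11.4% of all tested genes. Their sums overlapped between the genotypes, and Hba-a1 and Cd163 averaged under 16. The part of any cell type in the differences of Psat1, Psph or Ddit3 was not tested.

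Variation among livers of 1 genotype is a different measure from the difference between genotypes, and its correlations were added after the values were seen. It was compared for the 8 genes that averaged over 100 units, as deviations from the genotype mean over 10 livers. The pairs share the same 8 genes and 10 livers. The share of positive pairs among other genes was not computed, so nothing is read from the count of positive pairs. Of 28 pairs, 22 had a positive Pearson correlation, and 0 passed 0.05 after Benjamini-Hochberg adjustment over the 28 pairs. The highest was that of Phgdh with Mthfd2, at r = 0.75 (two-sided exact permutation p = 0.0121 over 14400 orders within genotypes, adjusted p = 0.299) and Spearman's rho = 0.73 (exact permutation p = 0.0231, adjusted p = 0.162). KO replicate 2 and WT replicate 1 were high in both genes. Without WT replicates 1 and 5, the 2 livers farthest from the median in Phgdh alone, r was 0.90. KO replicate 2 stayed in that comparison, and r without it was not computed.

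Psat1 and Psph, neighbours in the pathway, had r = 0.72 (exact permutation p = 0.0214, adjusted p = 0.299) and rho = 0.77 (exact permutation p = 0.0119, adjusted p = 0.162). WT replicate 1 was the highest WT liver for both. Without it and KO replicate 5, the 2 livers farthest from the median in Psat1 alone, r was 0.52. Shmt2 with Asns had r = 0.68 (exact permutation p = 0.0470, adjusted p = 0.366) and 0.44 without the 2 livers farthest out in Shmt2 alone. Over the same livers, the mean deviation of all 10 genes was most like that of Necab2, with r = 0.96, then Dag1, Inpp5k, Abhd4 and Nacc2, with r from 0.94 to 0.91. These are the highest values of a search through the other tested genes, of 12821 tested in all. How high r runs by chance in such a search was not tested, and nothing is read from these names. Necab2 and Nacc2 were dim, at 41.9 and 42.6 in KO livers and 33.9 and 37.8 in WT livers. The mean deviation of the 10 genes followed Chac1 most closely, at r = 0.82, a gene near the floor with the widest deviations of the set.

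**Figure D4:**
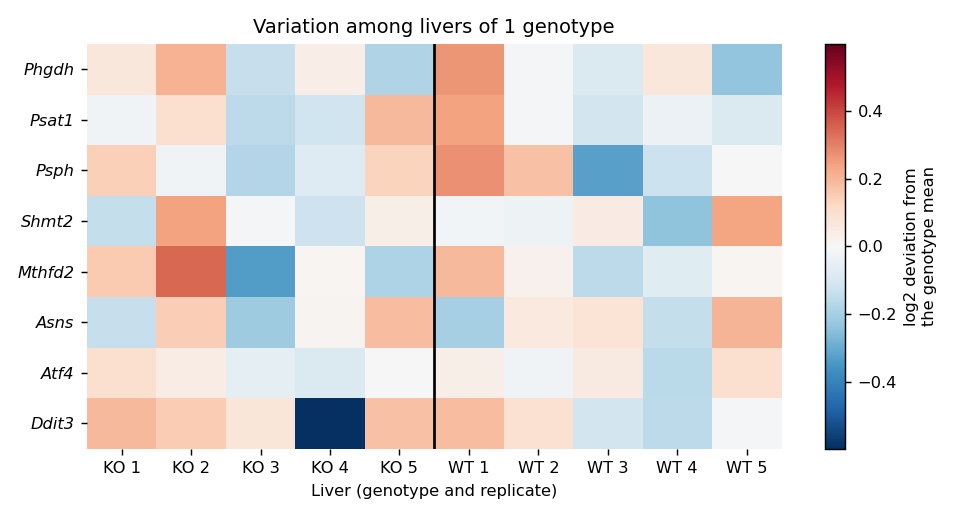
Deviation of each liver from the mean of its genotype (log2 scale, red above and blue below) for the 8 genes that averaged over 100 units, with 5 Zfp36l2 KO livers left of the line and 5 WT livers right of it. Phgdh and Mthfd2 are both high in KO replicate 2 and WT replicate 1, and the low Ddit3 value of KO replicate 4 stands out at -0.60.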

How the data were processed

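The deposited values are intensities on a linear scale, and 20.7% to 22.6% of them per array lie at or below 0. How the authors treated background is not given in the sources used here. The software by which the authors made these intensities is not given in the sources used here. Per the labels' protocols, biotin-labelled cRNA was made with a one-cycle Affymetrix kit. Intensities were quantile-normalized, values under 16 were set to 16 and log2 was taken. A floor at the lowest positive value, 0.000978, was an alternative. The 40% of probe sets with the lowest mean were left out. Zfp36l2 KO was compared with WT in limma 3.58.1 (R 4.3.3; lmFit, eBayes with trend, two-sided), adjusted by Benjamini-Hochberg over 27022 probe sets.

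The genes, the lists and the floor were chosen with earlier results of these data known. Named were all 10 genes, Zfp36l2, and in each pathway list up to 4 called genes or, with fewer than 2 called, those of largest moderated t up to 2. The 5 genes most like the members' mean deviation were named too. The pairwise correlations were added after the values were seen. List genes without a probe set of that single symbol were not analysed here. Probe annotation named 34945 probe sets with 1 symbol, 932 with several and 9160 with none. The number of livers limits precision.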

Additional observations from a re-analysis of the deposited data

Results flagged for a closer look

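By Dixon's ratio, 70 sets of 5 livers held 7 values far from the rest of their set, and chance alone marks about 1 set in 20, or 3.5. On the log2 scale Psat1 was high in WT replicate 1 (10.66, nearest 10.41), the WT liver closest to the KO range. Ddit3 was low in KO replicate 4 (6.22, nearest 6.89). Trib3 was high in KO replicate 2 by its second probe set (6.07, nearest 4.17) and in WT replicate 5 by its main one (4.28, nearest 4.03), the last close to the floor of 16 units. In that KO set 3 of 5 values had been set to 16, and in that WT set 2 of 5. This narrows the range of each set, so the chance rate of 1 in 20 need not hold for them. Zfp36l2 was low in KO replicate 2 (6.36, nearest 6.68) and high in WT replicate 3 (9.22, nearest 8.63). Iars was low in WT replicate 5 (9.98, nearest 10.15).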

How the results depend on the processing

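The count of called genes depended strongly on the setting. Against 42 in the reported fit, limma called 9 genes with the floor at the lowest positive value, 7 with a floor of 32, 1 with no filter on low values, 6 without the trend, 70 with array weights and 121 with the replicate number as a block. Leaving out 1 liver gave 10 to 114 genes, the lowest without WT replicate 4 and the highest without WT replicate 5. An offset of 16, median scaling and no scaling gave 38, 57 and 39. With median scaling the median log2 difference of all tested genes was 0.06, against 0.00 in the reported fit. That scaling put 37 of its 57 calls on the higher side, against 20 of 42. The balance was the opposite with the lowest-positive floor (1 of 9 higher), a floor of 32 (1 of 7) and no trend (0 of 6).

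Psat1 was called in 8 of 20 settings, the reported one included, at adjusted p-values of 0.0230 to 0.333 over the others. Psph was called in 1 of 20, with the replicate block (adjusted p = 0.0164), at differences of 0.35 to 0.51. Same-numbered livers correlated at 0.03 to 0.13 around their genotype means, and 4 of 5 KO livers correlated best with the WT liver of their number. The labels give no pairing beyond that number, and the reported fit did not use it. What same-numbered livers share was not tested. Cebpb was called with the block (adjusted p = 0.0453), with array weights (0.0471) and without WT replicate 5 (0.00599), and Manf with the block (0.0315) and with median scaling (0.0451). Phgdh, Shmt2, Mthfd2 and Ddit3 kept their sign and were called in none of the 20 settings, and neither was Trib3 in the 19 that tested it. Asns and Atf4 changed sign in 1 setting each, median scaling, at 0.02 and 0.04, where the median of all tested genes was 0.06. Chac1 changed sign in 5, and none of these genes was called. The cause of these changes was not tested.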
